A study of Mus musculus with 4 samples.

Results

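Midzonal hepatocyte nuclei, the nuclei of liver cells that carry neither a strong portal nor a strong central vein program, numbered 7956 of the 26591 deposited barcodes. They were chosen from counts of unique molecular identifiers (UMIs, which mark single captured transcripts). A hepatocyte nucleus had at least 3000 UMIs, at most 5% mitochondrially encoded UMIs, at least 10 UMIs of Cps1 and Apob together, and at most 2 UMIs summed over Ptprb, Stab2, Reln, Cd5l, Clec4f, Skap1 and Pax5. Of the 12284 such nuclei, members lay outside the top 25% of their library by a portal score (Sds, Hal, Gls2, Uroc1 and Gldc) and outside the top 10% by a central score (Slc1a2, Lgr5, Rcan2, Kif26b, Slc22a3 and Glul), and held under 3 UMIs of Gpc3 and Cacna1b together. Both scores were UMIs per 10000 UMIs of the nucleus. By library the members numbered 1677 and 2273 (Brca1-WT replicates 1 and 2) and 1592 and 2414 (replicates 1 and 2 labelled Brca1-KO). Their share of hepatocyte nuclei, between 64.1% and 65.0%, was set by the rule.

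The nuclei came from liver tissue outside tumors and were profiled one by one by droplet-based RNA sequencing. All mice were male and had received the liver carcinogen diethylnitrosamine (DEN) at 25 mg/kg when 14 days old, and were 12 months old at collection, so the Brca1-WT controls share the carcinogen exposure. Brca1 encodes a DNA repair protein, and each genotype label has 2 libraries, described as biological replicates. Strain, deleted exons and any Cre driver are not stated in these sources. Wherever 4 values follow each other below, they are Brca1-WT replicate 1, Brca1-WT replicate 2, Brca1-KO replicate 1 and Brca1-KO replicate 2, by label.

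Hepatocytes divide their work along the axis from the portal vein to the central vein. Periportal cells lead in urea synthesis, amino acid breakdown and glucose release, and perivenous cells, which respond to Wnt signals, lead in glutamine and bile acid synthesis and in drug metabolism by cytochromes P450. Cells of the middle zone are known for hepcidin (Hamp), the peptide hormone that limits iron export, for the IGF-binding protein Igfbp2, and for supplying new hepatocytes in the resting liver.

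The rule takes what is left between the zones, and its limits were unequal between libraries. The portal limit was 19.3, 36.0, 37.1 and 16.7 per 10000 UMIs and the central limit 43.2, 11.5, 19.5 and 6.37 per 10000 UMIs. At the portal limit the highest member and the lowest nucleus beyond it agreed to 3 digits in every library. At the central limit the highest member and the lowest perivenous nucleus lay at 43.2 and 43.3, 11.5 and 11.5, 19.5 and 20.4, and 6.36 and 6.37. By limits pooled over the libraries, 8.77% of the members of Brca1-WT replicate 1 would have been beyond the central limit, against at most 0.188% in any other library. Beyond the pooled portal limit would have been 21.2% of the members of Brca1-WT replicate 2, 21.8% of those of replicate 1 labelled Brca1-KO, and none in the other 2 libraries. With pooled limits, a setting added after seeing the data, 0 genes passed the test between the labels and Bhmt had a log2 fold change of −1.71.

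The members' summed UMIs ranged from 19405169 to 26282018 per library. Median UMIs per member were 9774, 7002, 10495 and 8621, so the labels overlapped (difference 1170, exact permutation p = 0.67, 2-sided, where 2 against 2 libraries cannot go below 0.33). Nuclei called as doublets made up 7.10%, 5.28%, 2.58% and 1.86% of the members, lower under the Brca1-KO label. The score threshold for a call was set per library, at 0.142, 0.168, 0.210 and 0.274, so these shares are not on the same scale. Between 9 and 20 barcodes were shared by any pair of libraries. Over 6817 genes the median absolute log2 difference between members of Brca1-WT replicate 2 and of replicate 1 labelled Brca1-KO was 0.16, smaller than the 0.21 within the Brca1-WT label and the 0.25 within the Brca1-KO label. Replicate 2 labelled Brca1-KO stood farthest apart, with 6.59%, 6.38% and 7.64% of genes over 2-fold from the other libraries in turn, while no other pair passed 3.56%.

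Brca1 itself did not follow the labels. Its level in the members was 13.2, 12.5, 18.4 and 5.96 CPM, UMIs relative to the library's total after TMM adjustment. One library with the knockout label was thus above both controls and the other below both, with a log2 fold change of −0.08 (standard error 0.53) and an edgeR adjusted p of 0.995. Which exons were removed is not known here, so UMIs may also come from a transcript that lacks part of the gene. Every direction below rests on the labels.

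The name "midzonal" was checked against genes that the rule does not use, as a description, since the rule itself separates the zones. These zone levels are CPM of each zone's summed nuclei, without TMM. Hamp stood highest in the midzonal sums of all 4 libraries, at 981, 997, 1438 and 705 CPM. The periportal nuclei, the 3063 in the top 25% by portal score, held 427, 589, 1032 and 305 CPM, and the 1228 perivenous nuclei held 474, 614, 805 and 217 CPM. The order of the libraries was the same in each zone.

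Igfbp2 was also highest in the middle zone in all 4 libraries, at 80.0, 246, 206 and 189 CPM, against 73.0, 205, 146 and 157 CPM in periportal and 13.1, 124, 72.6 and 47.6 CPM in perivenous nuclei. The step to the periportal side was small and the step to the perivenous side large. Cyp8b1, the sterol 12-alpha-hydroxylase that sets the balance of bile acids, was highest in midzonal nuclei in 2 libraries and in perivenous nuclei in the other 2. The major urinary protein gene Mup3 was highest in periportal nuclei in all 4 libraries and so did not mark the middle. Of the 5 markers taken for the middle zone, Hamp and Igfbp2 thus had the pattern of the label in every library. The fifth, Hamp2, was close to absent, at 0.155, 0.154, 0.153 and 0.228 CPM in the members.

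Hamp and Hamp2 are near-identical neighbouring genes, and stretches of both promoters are shown because only the first was found at an appreciable level. The stretches are from RefSeq promoter windows (GRCm38.p6), on the minus strand. They are at chr7:30944080-30944179 for Hamp and chr7:30924232-30924331 for Hamp2. Capitals mark GGCGCC, the core of the element through which BMP signals reach hepcidin, and TTCTTGGAA, the STAT3 element, searched on both strands (GGCGCC reads the same on both, and these matches do not overlap).
Hamp: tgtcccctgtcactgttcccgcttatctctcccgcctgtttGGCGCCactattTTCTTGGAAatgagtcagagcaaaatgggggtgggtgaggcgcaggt
Hamp2: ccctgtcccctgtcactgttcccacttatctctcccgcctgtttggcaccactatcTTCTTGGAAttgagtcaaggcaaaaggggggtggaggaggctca
The windows of 250 bases upstream of the start of both genes held the STAT3 letters, which 0.365% of 32851 promoter windows of that length hold. Hamp alone of the pair held GGCGCC, which 9.59% of those windows hold. A match of letters is not a measured site, and UMIs of near-identical copies may be split between the genes.

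Hsd17b13 and Cyp2f2, known to lead near the portal vein and not used by the rule, took a middle level in the members. Hsd17b13, a lipid droplet enzyme, held 85.6, 194, 142 and 193 CPM in the members, 513, 624, 505 and 565 CPM in periportal and 14.99, 37.8, 20.2 and 23.6 CPM in perivenous nuclei. Cyp2f2, a periportal cytochrome, held 49.2, 84.7, 69.8 and 136 CPM in the members and 471, 332, 314 and 406 CPM in periportal nuclei. Each library had the same order of zones for both genes. The gluconeogenic enzyme Pck1 differed less, with 2700.2, 3074, 2260.0 and 1576 CPM in the members and 2768, 3389, 2375 and 2415 CPM in periportal nuclei. Cps1, the first enzyme of the urea cycle and a gene of the gate, was highest in midzonal nuclei in 3 libraries and in periportal nuclei in 1, and Tat, which starts tyrosine breakdown, was also highest in midzonal nuclei in 3.

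Cyp2e1, Axin2 and Cyp7a1, perivenous genes outside the rule, were intermediate too in every library, while low-count genes of that list such as Nkd1, Rhbg and Gstm3 were not. Cyp2e1, the P450 that activates DEN, held 2098, 1711, 1101 and 1497 CPM in the members, 374, 172, 109.9 and 143 CPM in periportal and 2667, 2597, 1911 and 2314 CPM in perivenous nuclei, so the members lay nearer to the perivenous level. The Wnt target Axin2 held 15.4, 9.98, 9.67 and 10.1 CPM in the members, 2.40, 2.28, 1.97 and 1.92 CPM in periportal and 45.7, 28.3, 45.3 and 37.6 CPM in perivenous nuclei. Cyp7a1, the rate-limiting enzyme of bile acid synthesis, held 929.6, 518, 486 and 463 CPM in the members and was highest in perivenous nuclei of all 4 libraries. Of the markers of other cells, Krt19 of bile duct cells was at 0 in every library. Sox9, another of the 5 bile duct cell markers, held 1.86, 2.83, 4.27 and 4.38 CPM in the members. It was thus above both controls in each library of the Brca1-KO label, as were 14.9% of all genes tested, and did not pass. Sox9 was highest in periportal nuclei of all 4 libraries, at 6.55, 6.83, 9.54 and 8.08 CPM. Krt7, Epcam and Spp1, the other bile duct cell markers, were at most 0.103 CPM in the members. The 8 endothelial markers together reached 62.3, 46.0, 34.4 and 18.1 CPM in the members, and the 6 Kupffer cell markers 12.9, 10.8, 4.68 and 7.08 CPM. Both sums were lower under the Brca1-KO label, and the gate itself removes nuclei by some of these genes.

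**Figure D1:**
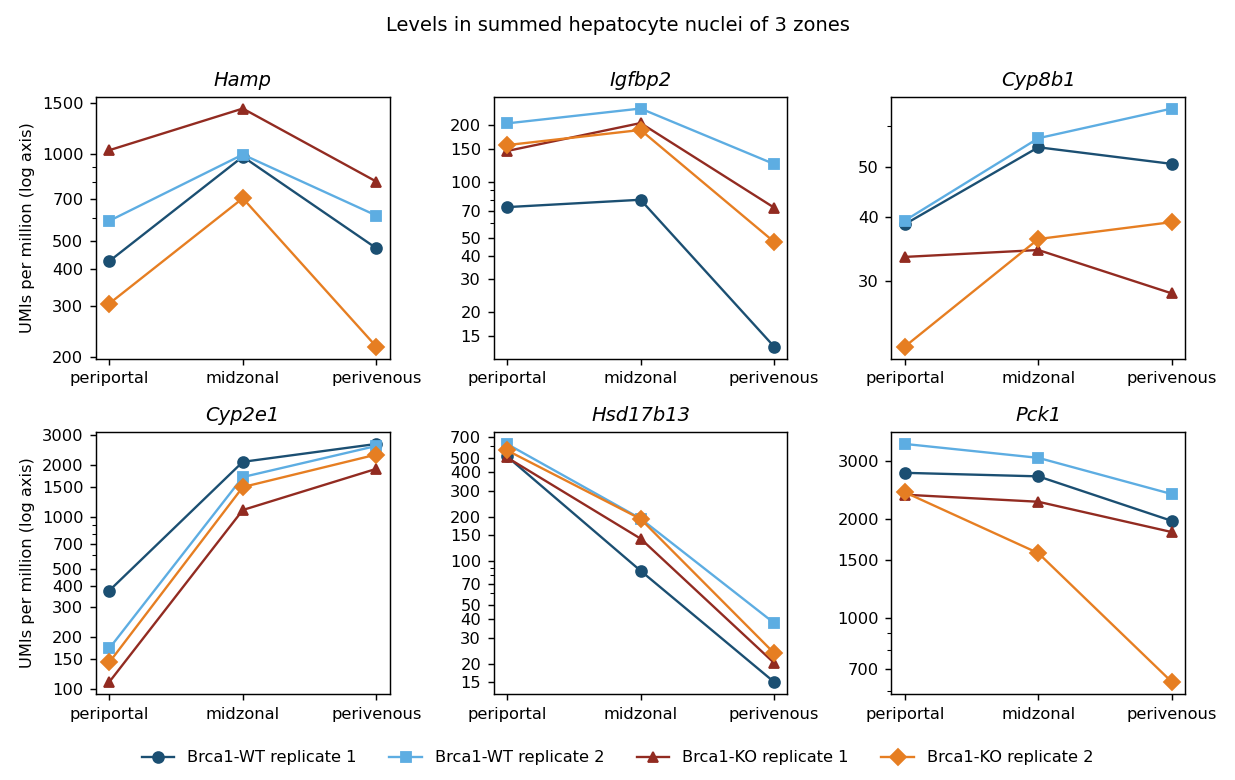
Levels of 6 genes outside the rule (CPM, log axes that do not start at 0) in the summed periportal, midzonal and perivenous hepatocyte nuclei, with 1 line per library. Hamp and Igfbp2 peak in the middle in all 4 libraries, Cyp8b1 peaks there in 2, Cyp2e1 climbs toward the central vein and Hsd17b13 and Pck1 decline from the portal side.

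The members were not uniform. Variation among nuclei was measured by the Fano factor, the variance divided by the mean of UMIs after each nucleus was thinned to 3000 UMIs, for which a value of 1 is what counting alone gives. Over 4124 genes with a mean of at least 0.1 UMI in every library, the median Fano factor was 1.07 and the 95th percentile 1.40. The highest median over the 4 libraries was that of Pcdh11x, which encodes a protocadherin adhesion protein, at 12.3, 11.3, 11.1 and 9.23. The median member held 0 of its UMIs in every library, and the 10% of nuclei with the most held 84.4%, 82.8%, 75.1% and 98.4% of them. The single highest nucleus reached 162, 134, 155 and 80.0 per 10000 UMIs. Concentration of this transcript in few nuclei was thus found in all 4 libraries.

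Pcdh11x did not mark one edge of the zone. The members of each library were split into 3 equal bins by portal minus central score, called central, middle and portal. A central score of 0 was held by 37.1%, 58.3%, 55.9% and 59.8% of the members, and these were ranked by the portal score alone. The central bin is therefore in part a bin of low portal score. Pcdh11x held 331, 244, 324 and 47.0 CPM in the central bin, 271, 219, 477 and 78.7 CPM in the middle bin and 282, 375, 582 and 100.2 CPM in the portal bin. The portal bin was the highest in 3 libraries and the central bin in Brca1-WT replicate 1.

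Other genes that varied widely did follow the zonal axis. Cyp2c38, a cytochrome P450, had Fano factors of 6.41, 6.08, 5.26 and 8.81, and its level was 2559, 2045, 1314 and 4624 CPM in the central bin against 281, 174, 101.1 and 266 CPM in the portal bin. The transcriptional regulator Tox, better known from T cells, had Fano factors of 3.10, 3.56, 4.83 and 4.03, and its level was 2011, 1708, 1906 and 1699 CPM in the central bin against 423, 178, 173 and 75.9 CPM in the portal bin. The bins are cut by the scores that chose the members, and these levels are a description. Across the members of a library, Spearman's rho between Cyp2c38 and the portal score was −0.67, −0.71, −0.60 and −0.75 (n = 1677, 2273, 1592 and 2414 nuclei), where nuclei share a library and both measures share a depth. Among the 20 most variable genes, Tox, the amino acid transporter Slc16a10, Cyp2e1 and the imprinted antisense RNA Airn also had rho of −0.31 or lower with the portal score in every library. Albumin (Alb) had the opposite sign, at 0.19, 0.38, 0.27 and 0.45.

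Hamp also ranked among the 20, with Fano factors of 2.49, 2.76, 2.86 and 2.98. It was highest in the middle bin in every library, at 1099, 1158, 1595 and 930.2 CPM. The central bin held 958, 1028, 1375 and 697 CPM and the portal bin 886, 798, 1335 and 464 CPM. The peak of hepcidin lay inside the class and not at one of its borders. The remaining genes of the 20 were the nuclear RNAs Malat1 and Neat1, the gene models Gm42418 and Gm26917, the plasma protein Mug1, Cps1, the oxysterol hydroxylase Cyp7b1, the arginine transporter Slc7a2, the receptor Egfr, mt-Co1, the pyrimidine-degrading Dpyd and the cadherin Cdh18. Gm42418 had a Fano factor of 48.7 in replicate 2 labelled Brca1-KO and 6.69 to 8.30 in the other 3 libraries. Its level per 10000 UMIs was lower in nuclei with more UMIs in every library (Spearman's rho −0.41, −0.31, −0.38 and −0.51). Its variation is therefore not separate from the depth of the nuclei, and the part of depth in it was not tested.

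**Figure D2:**
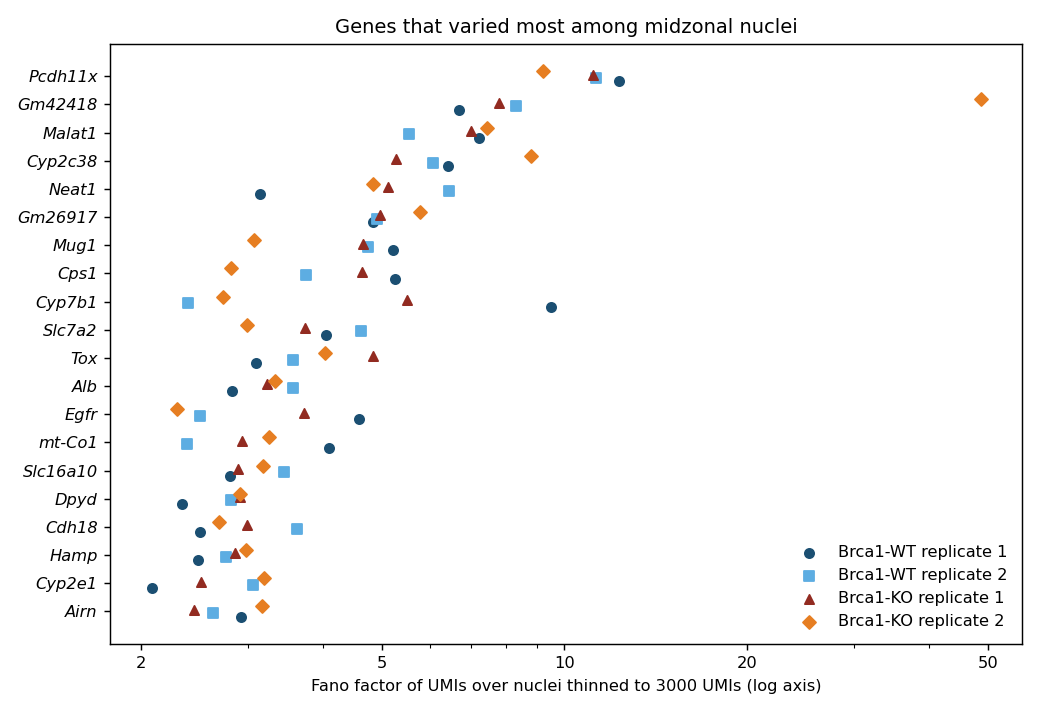
Fano factor of UMIs (log axis) over midzonal nuclei thinned to 3000 UMIs, for the 20 genes with the highest median over the 4 libraries, 1 symbol per library. Pcdh11x lies between 9.23 and 12.3 in all libraries, and Gm42418 reaches 48.7 in replicate 2 labelled Brca1-KO alone.

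A portal edge could also be seen through Cyp2e1. Members with Cyp2e1 below 5 per 10000 UMIs made up 8.17%, 22.1%, 29.5% and 32.5% of the libraries (difference of means 15.8 percentage points, exact permutation p = 0.33, the smallest possible). The labels did not overlap. The score limits also differed between libraries in the same nuclei, and their part in this share was not tested. The cut is a fixed level, while perivenous Cyp2e1 was itself lower under the Brca1-KO label (2667, 2597, 1911 and 2314 CPM). A larger share below the cut is therefore not by itself a larger portal edge. Nuclei below the cut held 368, 306, 202 and 393 CPM of Cyp2f2 against 28.6, 30.8, 20.03 and 41.1 CPM in the other members. They also held less Hamp, at 408, 589, 1203 and 348 CPM against 1018, 1097, 1526 and 836 CPM. Their Hsd17b13 was lowest in replicate 1 labelled Brca1-KO (471, 591, 335 and 495 CPM). Their Cyp2c38 was highest there (50.2, 81.4, 179 and 139 CPM).

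The comparison of the Brca1-KO label with the Brca1-WT label in the members asked which midzonal transcripts differ with the genotype. Of 14214 genes tested by edgeR on sums per library, 0 passed at an adjusted p below 0.05 (0% called, smallest adjusted p = 0.52). An unadjusted p below 0.05 was found for 445 genes (3.13%), 142 higher (0.999%) and 303 lower (2.13%). By sign alone 48.8% of all genes lay higher and 51.2% lower under the Brca1-KO label. The labels did not overlap for 4552 genes (32.0% of all), 2115 above (14.9%) and 2437 below (17.1%). DESeq2 called 10 genes (0.0704%), 4 higher and 6 lower. With replicate 1 labelled Brca1-KO left out, edgeR called 145 of 15004 genes (0.966%), 75 higher (0.5%) and 70 lower (0.467%), where the lone remaining library is assumed to vary like the controls. With replicate 2 of that label left out it called 5.

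Bhmt, the betaine-homocysteine methyltransferase named in the title, remethylates homocysteine to methionine. Members held 1918, 1192, 701 and 276 CPM. Both libraries with the knockout label lay below both controls, and libraries of 1 label also differed widely. The means were 1555 ± 514 CPM (SD, n = 2) for Brca1-WT and 488 ± 301 CPM (SD, n = 2) for Brca1-KO (exact permutation p = 0.33, the smallest possible). The log2 fold change of −1.67 (standard error 0.54) had an unadjusted p of 0.026 and did not pass (edgeR adjusted p = 0.99). It was −2.49 with an edgeR adjusted p of 0.040 when replicate 1 labelled Brca1-KO was left out, and −1.14 with an adjusted p of 0.999 when replicate 2 was.

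The Bhmt difference ran through the whole zone. In the central bin of the members the levels were 1860.4, 1199, 728 and 287 CPM, in the middle bin 1805, 1169, 687 and 247 CPM and in the portal bin 2165, 1250.4, 732 and 249 CPM. Every bin kept the same order of the 4 libraries, as did the nuclei with low Cyp2e1 (2179, 1237, 671 and 231 CPM). Per nucleus the median was 16.4, 9.92, 5.34 and 1.56 per 10000 UMIs, and the 90th percentile of the last library, 6.67, lay below the median of both controls. The gene model Gm15622, annotated antisense inside Bhmt, held 193, 112, 74.8 and 33.7 CPM. No source used here says if counting was by strand, and without it reads of the pair cannot be told apart.

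**Figure D3:**
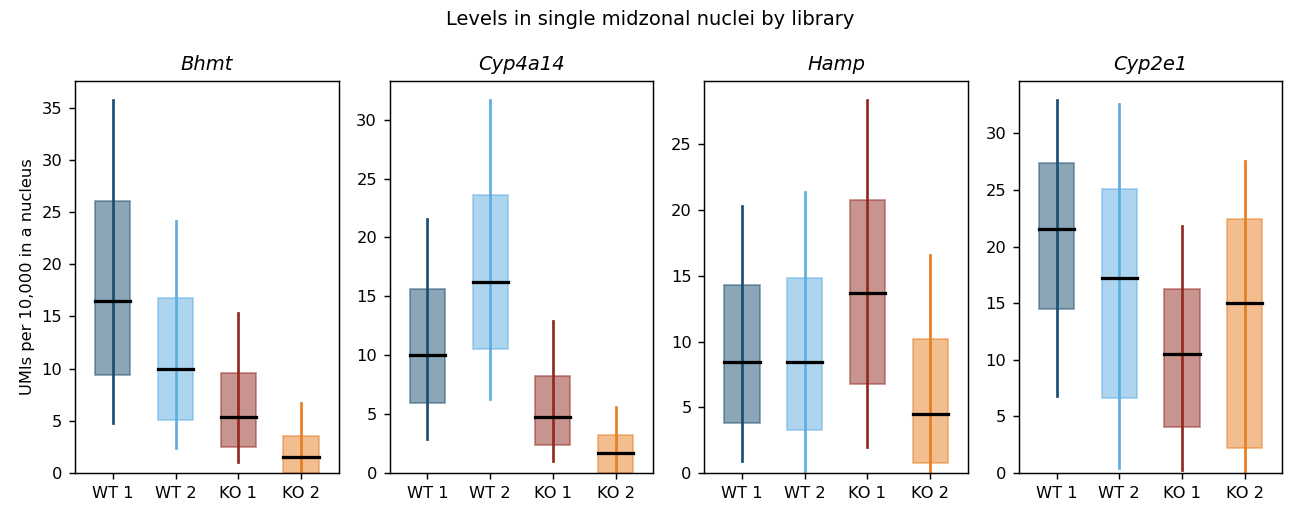
UMIs per 10000 in single midzonal nuclei for Bhmt, Cyp4a14, Hamp and Cyp2e1, where the black bar is the median, the box spans the quartiles and the line the 10th to 90th percentile of the nuclei in a library. The Bhmt median steps down from 16.4 to 1.56, while the Hamp medians under the Brca1-KO label, 13.7 and 4.48, enclose both controls at 8.43.

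Markers of the middle zone did not separate the genotype labels as a group. Hamp held 967, 986, 1409 and 741 CPM, 1 library above and 1 below the controls (log2 fold change 0.14 (standard error 0.37), edgeR adjusted p = 0.995). Igfbp2 held 78.9, 243, 201 and 199 CPM, so that Brca1-WT replicate 1 alone stood apart. Mup3 held 129, 141, 60.8 and 234 CPM, with the Brca1-KO label on both sides of the controls. Cyp8b1, at 53.7, 56.1, 33.8 and 38.1 CPM, was the one marker whose labels did not overlap (log2 fold change −0.61 (standard error 0.17), edgeR adjusted p = 0.99).

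Genes around hepcidin were close between the labels. Hepcidin is switched on by BMP receptors with the co-receptor Hjv and is held down by the protease Tmprss6. Of 30 genes of this list, 28 were tested, 20 higher and 8 lower, where 48.8% of all genes lay higher. Among the 28, 7 lay above both controls and 2 below both (14.9% and 17.1% over all genes). The list's median log2 fold change was 0.14 against −0.01 over all genes tested, and 0 passed. Atoh8, a transcription factor downstream of BMP signals, held 37.4, 46.9, 73.6 and 57.0 CPM. The inhibitory Smad7 held 73.8, 61.0, 116 and 77.3 CPM. Both genes lay above both controls in each library of the Brca1-KO label. The receptors Acvr1 (147, 132, 167 and 211 CPM) and Neo1 (92.4, 80.1, 103 and 111 CPM) differed less, while Hjv, Tmprss6, Tfr2 and Id1 overlapped between the labels.

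Bile acid genes had more members lower than higher, by small amounts. Of 24, 18 were lower and 6 higher (median log2 fold change −0.08), 7 were below both controls, where 17.1% of all genes lay, and 0 passed. The uptake transporter Slco1a1 held 719.5, 517, 329.7 and 143 CPM, and its relative Slco1a4 1183, 767, 509 and 477 CPM. Abcb4, which exports phospholipid into bile, held 1147, 945, 782 and 737 CPM. In all 3 transporters the labels were separate, yet the controls differed from each other by more CPM than the libraries of the Brca1-KO label did.

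The 10 genes each way with the smallest unadjusted p, among well-counted genes whose labels did not overlap, are named next, and none passed (edgeR adjusted p = 0.99 for each). Among the higher ones Syvn1, the E3 ligase that clears misfolded proteins from the endoplasmic reticulum, held 37.7, 28.5, 68.8 and 69.3 CPM (log2 fold change 1.06 (standard error 0.21)). The chaperone Hsp90aa1 held 32.9, 39.3, 61.8 and 100.6 CPM, and Hikeshi, which carries HSP70 into the nucleus, 16.4, 17.2, 27.5 and 36.3 CPM. The stress transcription factor Ddit3 held 11.9, 10.6, 19.9 and 30.9 CPM, and P4ha1, a collagen prolyl hydroxylase, 46.6, 68.9, 109 and 174 CPM. For each of these 5 genes both libraries of the Brca1-KO label were above both controls, as the choice required. The ubiquitin ligase Lnx1 (51.9, 58.4, 98.7 and 112 CPM) and the peptidase Trhde (23.4, 23.1, 35.8 and 38.8 CPM) had close replicates, and Banp, Phlda1 and Pbx3 completed the 10.

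Of the 10 lower genes, Sntg2, a syntrophin, held 461, 242, 65.6 and 86.7 CPM (log2 fold change −2.21 (standard error 0.38)), and the cytochrome P450 Cyp2b9 22.4, 35.1, 7.68 and 9.88 CPM. DESeq2 called both. Acsl5, which activates long-chain fatty acids, held 86.1, 91.3, 45.5 and 54.6 CPM, and the phospholipase Ddhd2 99.2, 95.7, 51.3 and 55.8 CPM. The growth factor Fgf1 held 205, 171, 105 and 109 CPM, and cytidine deaminase, Cda, 93.1, 114, 40.8 and 57.9 CPM. In these 4 genes the spread within a label was smaller than the gap between the labels, which the choice by separate labels and small p favours. Brca2, the partner of Brca1 in homologous recombination, held 20.9, 22.8, 12.7 and 13.7 CPM, closer within the Brca1-KO label than Brca1 itself. Ccdc57, the glycine transporter Slc6a9 and Sh3bp2 made up the rest.

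DESeq2 also called, among genes named after their values were seen, Tor3a, Grm7 and Acot1 among the lower and Nebl and the gene models Gm13775, Gm42047 and Gm31508 among the higher. Tor3a, of the torsin family, held 10.3, 9.72, 3.24 and 2.04 CPM, and Nebl, encoding the actin-binding nebulette, 4.47, 4.37, 14.4 and 14.3 CPM. In Nebl each label held a narrow pair of values.

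**Figure D4:**
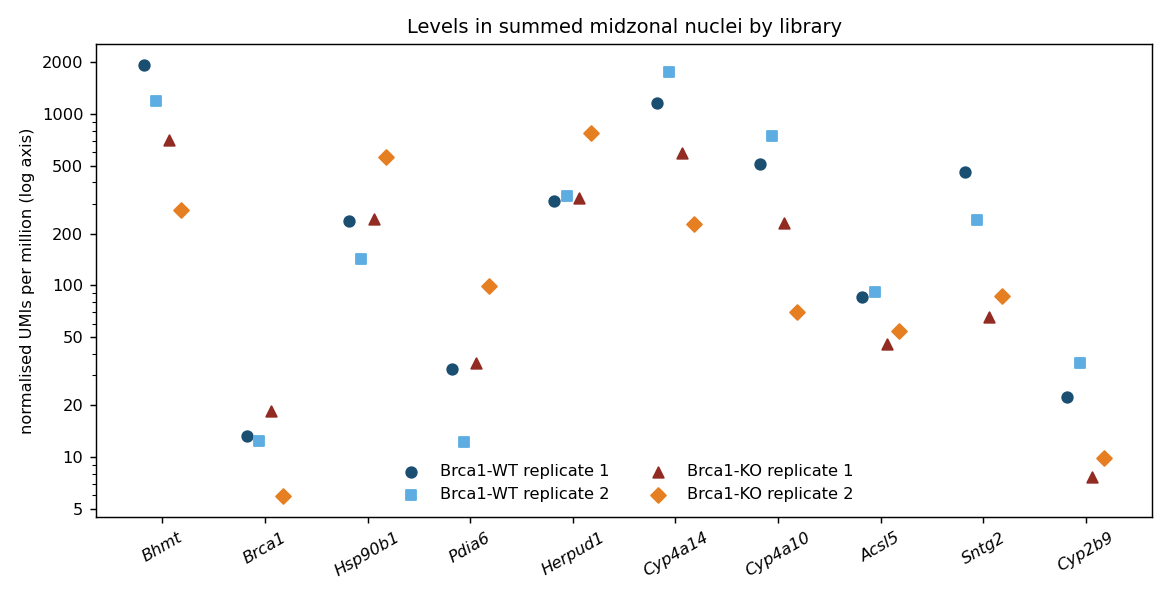
CPM after TMM (log axis that does not start at 0) in the summed midzonal nuclei for 10 genes, 1 symbol per library. Bhmt, Cyp4a14, Cyp4a10, Acsl5, Sntg2 and Cyp2b9 lie below both controls in both libraries of the Brca1-KO label, while Brca1 lies above them in replicate 1 and below them in replicate 2.

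Genes of the unfolded protein response, the program that raises chaperones when misfolded protein gathers in the endoplasmic reticulum, were the list farthest above the controls among lists with at least 8 tested members. All 28 were tested, 27 were higher and 1 lower, 15 were above both controls (14.9% over all genes), and 0 passed, 6 having an unadjusted p below 0.05 (0.999% over all genes, higher). The median log2 fold change was 0.88 against −0.01 over all genes, and set against the mean of the controls the list had medians of 0.35 (log2) in replicate 1 labelled Brca1-KO and 1.24 in replicate 2. Hspa5, the main chaperone of the compartment, held 98.7, 40.4, 91.0 and 292 CPM. Its partner Hsp90b1 held 237, 143, 245 and 560.5 CPM, and the disulfide isomerases Pdia3 and Pdia6 held 119, 63.5, 132 and 439 CPM and 32.8, 12.3, 35.4 and 98.7 CPM. In these 4 genes replicate 1 labelled Brca1-KO stood beside Brca1-WT replicate 1, and replicate 2 stood far above. Syvn1 and Ddit3 differed from this in that both libraries of the label were well above both controls. With replicate 2 labelled Brca1-KO left out the list's median was 0.37.

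Many promoters of this list hold the same element, shown here because the list lay high as a whole. The endoplasmic reticulum stress element (ERSE, CCAAT and CCACG with 9 bases of any kind between, searched on both strands of the 250 bases upstream of the start) was found in 9 of the 24 members with a RefSeq window (37.5%), namely Calr, Canx, Creld2, Derl3, Dnajc3, Hsp90b1, Hspa5, Pdia6 and Syvn1, and in 0.113% of all 32851 windows. Capitals mark the element in 3 of them, on the plus strand of GRCm38.p6 at chr2:34772010-34772058, chr12:17266476-17266524 and chr19:6046517-6046565.
Hspa5: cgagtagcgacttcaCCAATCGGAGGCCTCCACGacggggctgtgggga
Pdia6: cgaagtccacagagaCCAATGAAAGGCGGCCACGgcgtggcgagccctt
Syvn1: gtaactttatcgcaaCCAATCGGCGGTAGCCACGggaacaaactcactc
The list is one of known genes of this program, so its share of matches describes the list and not what acted in these nuclei.

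Immediate early and heat shock genes formed 1 list. Of 24 immediate early and heat shock genes, 20 were tested, 14 higher and 6 lower, with a median of 0.34 (0.31 and 0.40 in the libraries of the Brca1-KO label), 11 lay above both controls (14.9% over all genes) and 0 passed. Of those 11, all but Junb and Klf6 were chaperone genes, Hspd1 and Hspe1 being mitochondrial ones, while the small heat shock gene Hspb1 overlapped at 1.12, 2.95, 5.28 and 2.80 CPM. Hsph1 held 23.1, 43.6, 74.9 and 174 CPM, Hsp90ab1 92.6, 138, 179 and 289.9 CPM, and Hspa1b 0.559, 0.966, 2.24 and 9.16 CPM, though UMIs of Hspa1b may be split with its near-identical copy Hspa1a. The immediate early genes Jun, Egr1, Ier2, Btg2 and Atf3, which respond within minutes to stimuli, overlapped between the labels.

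Genes of fatty acid oxidation and targets of PPARA, the nuclear receptor of fasting, lay lower. Of 40 tested, 35 were lower and 5 higher, 18 were below both controls (17.1% over all genes), and 0 passed by edgeR. The median log2 fold change was −0.34, and the median log2 ratios of the libraries of the Brca1-KO label were −0.46 and −0.26. With Brca1-WT replicate 2 left out the median was −0.19. The omega-hydroxylases Cyp4a14 and Cyp4a10 held 1152, 1752, 593 and 229.5 CPM and 514, 743, 232 and 70.1 CPM. Both genes were lowest in replicate 2 labelled Brca1-KO, and both passed when replicate 1 of that label was left out (edgeR adjusted p = 0.028 and 0.0088). The thioesterase Acot1 held 23.6, 22.7, 7.83 and 8.36 CPM and was called by DESeq2 (adjusted p = 0.0014) and not by edgeR (adjusted p = 0.99). Ppara itself held 2302, 2573, 2138 and 3498 CPM, with the labels overlapping. UMIs of the Cyp4a and Acot genes may be split between near-identical copies.

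Cyp4a14 was lower along the whole zone. Its level in the central bin was 1166, 1579, 567 and 205 CPM, in the middle bin 1155, 1729.6, 585 and 214 CPM and in the portal bin 1184, 2003, 663 and 239 CPM. No bin of a library labelled Brca1-KO reached the level of any bin of a control.

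The 13 transcripts of the mitochondrial genome all lay lower, 12 of them below both controls (17.1% over all genes), with a median of −0.60 (−0.71 and −0.46 in the libraries of the Brca1-KO label), and 0 passed. mt-Co1, a cytochrome oxidase subunit, held 335, 362, 213 and 228 CPM, and mt-Nd1 of complex I 69.5, 58.3, 36.2 and 38.7 CPM. Mitochondrial transcripts are made in mitochondria and not in the nucleus, and they made up 0.124%, 0.130%, 0.0795% and 0.0818% of the members' UMIs (means 0.127% ± 0.00460 and 0.0806% ± 0.00166, SD, n = 2 each, exact permutation p = 0.33, the smallest possible). This share moved with the labels, as did the endothelial and Kupffer marker sums, and their part in the gene results was not tested.

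Zonal genes differed between the replicates labelled Brca1-KO. Of 27 perivenous genes outside the rule 25 were tested, 16 lower and 9 higher, with median log2 ratios of −0.67 and −0.01 to the Brca1-WT mean. Gulo, whose product makes vitamin C, held 97.6, 87.1, 56.3 and 36.2 CPM, and the cytochrome Cyp2c37 259, 245, 149 and 88.0 CPM, both lower in each library. Its relative Cyp2c50 held 145, 99.5, 39.2 and 92.6 CPM, with replicate 2 close to a control. The list's median log2 fold change was 0.04 with Brca1-WT replicate 1 left out and −0.66 with replicate 2 labelled Brca1-KO left out. The 36 genes of the urea cycle and amino acid catabolism, 27 lower and 9 higher, had medians of 0.12 and −0.66 in the libraries of the Brca1-KO label. Tat held 2510.4, 2125, 2163 and 805 CPM, and Asl of the urea cycle 810.2, 1012, 941 and 250.1 CPM, so that replicate 2 alone was low. The list's median log2 fold change was 0.13 with that library left out.

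The other lists, cell type markers aside, had medians between −0.14 and 0.18, with 0 genes passing in any. With one library left out these medians reached from −0.52 (growth hormone and sex-biased genes) to 0.42 (proliferation genes), and several changed sign. Transcription factors and nuclear receptors of the hepatocyte had 24 of 34 genes higher, 8 above both controls and 0 below both, against 14.9% and 17.1% of all genes. Hnf4a, a central regulator of hepatocyte identity, held 464, 438, 594 and 721 CPM and the pioneer factor Foxa2 27.6, 36.4, 49.8 and 43.9 CPM. Among clock genes the repressor Nr1d1 held 20.7, 14.8, 23.6 and 46.9 CPM. In the methionine cycle, beside Bhmt, its relative Bhmt2 held 303, 245, 183 and 172 CPM. Dmgdh, which oxidises the dimethylglycine from that reaction, held 541, 414, 309 and 333 CPM, and the S-adenosylmethionine synthetase Mat2a 61.3, 68.8, 79.4 and 92.3 CPM. Bhmt2 and Dmgdh were below and Mat2a was above both controls. Of the 33 tested genes of the one-carbon and methionine cycle, 3 were above and 6 below both controls, against 14.9% and 17.1% of all genes. These examples therefore do not stand for the list. Targets of p53 were 11 higher and 10 lower, and 15 of 30 proliferation genes had too few UMIs to test.

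**Figure D5:**
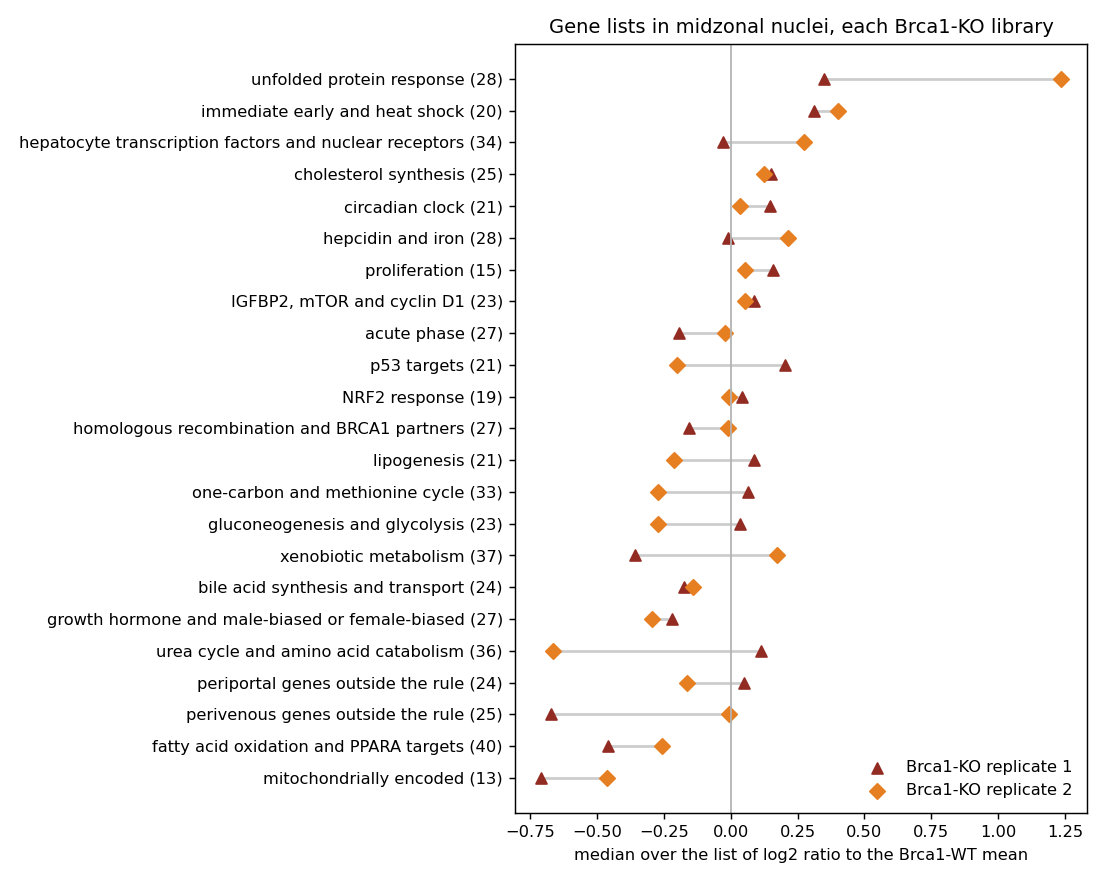
Median over each gene list (tested members in parentheses, lists with at least 8) of the log2 ratio to the mean of the Brca1-WT libraries, for midzonal nuclei of the 2 libraries labelled Brca1-KO. The unfolded protein response lies at 0.35 and 1.24, mitochondrially encoded genes at −0.71 and −0.46, and urea cycle genes on both sides of 0.

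Whether the genotype difference in the members differed from that in the other zones was tested by an interaction term with the library as a block. Of 12883 genes, 0 passed against periportal nuclei (300 with an unadjusted p below 0.05, 2.33%) and 0 against perivenous nuclei (516, 4.01%). The tests used edgeR. Bhmt held 2405, 1314, 761 and 254 CPM in periportal, 1945, 1206, 715 and 262 CPM in midzonal and 1417, 1229, 729.7 and 363 CPM in perivenous nuclei. The order of the libraries was the same in every zone.

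Genes of smallest p in these zone tests are given as examples, and none passed (edgeR adjusted p = 1.0 for each, rounded). Hsd17b6, a steroid-converting enzyme, held 3.57, 4.58, 1.70 and 47.5 CPM in midzonal and 38.0, 23.3, 7.18 and 145 CPM in periportal nuclei, an interaction of 1.22 (standard error 0.27). The peroxisomal transporter Abcd2 held 10.4, 14.4, 7.45 and 93.9 CPM in midzonal and 21.5, 29.3, 11.4 and 123 CPM in periportal nuclei. Both genes stood far higher in replicate 2 labelled Brca1-KO than in the other libraries, in both zones. Toward the central side, App, the amyloid precursor gene, held 24.0, 34.6, 22.1 and 32.8 CPM in midzonal and 17.9, 24.2, 7.73 and 12.7 CPM in perivenous nuclei, an interaction of 0.93 (standard error 0.21). Txnip, a glucose-responsive regulator, held 70.5, 20.5, 6.55 and 14.5 CPM in midzonal and 36.6, 12.6, 7.73 and 17.0 CPM in perivenous nuclei, an interaction of −1.14 (standard error 0.26).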

How the data were processed

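Nuclei of 4 liver samples (2 per genotype label) were counted by the authors with Cell Ranger 6.0.0, named in the file headers. The deposited values are raw UMI counts per gene and barcode, with no normalization. The submitters' processing notes name a human build for mouse identifiers, so no coordinates come from the files, and promoter sequences are from RefSeq (GRCm38.p6). Raw UMIs of the members were summed per library and tested in edgeR 4.0.16 under R 4.3.3 (glmQLFTest, TMM factors, filterByExpr, no block, Benjamini-Hochberg adjustment over all genes tested). Both zone tests came from a single fit to the midzonal, periportal and perivenous sums of every library, with the library as a block. Alternatives were DESeq2 1.42.0, RLE scaling, no filter, a replicate block, left-out libraries, 5000 UMIs, a narrower class, a stricter gate, doublets removed (Scrublet in scanpy 1.11.5) and thinning to 3000 UMIs. Log2 ratios used a pseudocount of 0.5 CPM. The edgeR test was tried on simulated counts first. Named genes were Brca1, Bhmt, the midzonal markers, 10 each way of smallest p with a log2 CPM of 4 or more and separate labels, up to 4 per list, 5 each way per zone test and the 20 of highest Fano factor, and others were picked after their values were seen. Members and lists were chosen with earlier results of these data known. Some genes are not reported here. p-values measure only the spread between these samples.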

Additional observations from a re-analysis of the deposited data

How the results depend on the processing

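Summed depth is at least 19405169 UMIs a library. Between the labels 0 genes passed under RLE scaling, other ties, doublet removal, 5000 UMIs, a narrower class, the stricter gate, thinning, pooled limits and the replicate block. It was 1 without a filter and 10 with DESeq2, and ranged from 0 to 145 with one library left out. The zone tests gave 5 (periportal) and 6 (perivenous) without a filter, and ranges of 0 to 8 and 0 to 38 with one library left out, the highest each time without replicate 1 labelled Brca1-KO. The correlation of deviations from the label means, between libraries of the same replicate number, was −0.11. With 2 libraries per label this value cannot show whether the replicate numbers pair the samples. The replicate block gave Bhmt −1.78. A crossed pairing, added after seeing the data, also called 0 genes. With one library left out, log2 fold changes ranged from −2.49 to −1.14 for Bhmt (past the threshold at −2.49 alone), −1.10 to 0.54 for Brca1, −0.39 to 0.54 for Hamp, −0.27 to 1.35 for Igfbp2 and −1.14 to 0.80 for Mup3. Mup3 was −0.18 with the replicate block and −0.17 with the crossed pairing. For the 28 named genes other than Bhmt, 331 of 336 values under settings that keep all libraries kept direction and side of the threshold, 3 newly passed and 2 reversed, and with a library left out 104 of 112 kept both, 4 newly passed and 4 reversed. The 10 genes named each way were chosen for separate labels, so leaving out a library could hardly reverse them. Their kept directions are therefore no evidence of stability. Of list medians, 31 of 96 moved with a library left out and 19 of 288 under other settings. Medians ranged from 0.00 to 0.23 for hepcidin and iron and from −0.22 to −0.04 for bile acids with one library left out. The causes were not tested.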

Other observations

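Some midzonal genes, singled out after their values were seen, differed in replicate 2 labelled Brca1-KO from the other 3 libraries. The carbonic anhydrase Car3 held 29.8, 23.1, 4.54 and 423 CPM. Nr0b2, the nuclear receptor that represses bile acid synthesis, held 9.20, 10.4, 6.23 and 42.3 CPM. The cell cycle inhibitor Cdkn1a held 9.76, 10.0, 20.5 and 0.640 CPM, so that replicate 1 labelled Brca1-KO was the highest and replicate 2 the lowest of all. In each of these 3 genes the labels overlapped and none passed (edgeR adjusted p at least 0.99).

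The fatty acid transporter Cd36 was higher in both libraries of the Brca1-KO label, at 3.35, 3.92, 7.88 and 17.2 CPM, and did not pass (log2 fold change 1.79 (standard error 0.44), edgeR adjusted p = 0.99). Genes of xenobiotic metabolism had medians of −0.36 and 0.17 in the libraries of that label, 16 higher and 21 lower of 37 tested.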
